A study of Mus musculus with 6 samples.

Results

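Toll-like receptors are membrane proteins with which cells detect molecules of microbes and of damaged cells. The 10 receptor genes described here, Tlr1 to Tlr9 and Tlr13, were picked by their gene symbols from the 34590 symbols that were counted in each library, and all 10 were counted and passed the filter on low counts. RNA came from skin of C57BL/6 mice to which imiquimod had been applied for 2 days. There were 3 mice labelled Tnip1+/+ (wild type) and 3 labelled Tnip1-/- (knockout), and the design text counts them as separate animals. All 6 mice had received imiquimod, so the comparison is between genotypes under treatment, and untreated skin was not analysed here. The labels name no cell type or promoter to which the loss of Tnip1 was restricted, and the age of the mice and the deleted part of the gene are not given in the sources used here. Tnip1 encodes a ubiquitin-binding partner of the enzyme A20 that restrains NF-kB signalling, and imiquimod is a small molecule that activates the receptor encoded by Tlr7. The question addressed was which of these 10 receptor transcripts differed between treated skin with and without Tnip1. Tlr11 and Tlr12, of the same family, were not among the 10 and are described with the accessory genes.

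The receptors of this family fall into surface receptors, which meet lipids and proteins of bacteria outside the cell, and endosomal receptors, which meet nucleic acids that the cell has taken up. Most of them signal through the adaptor MyD88 to NF-kB and to interferon regulatory factors, whereas TLR3 signals through the adaptor TRIF, encoded by Ticam1. The endosomal receptors need the chaperone UNC93B1 to reach the endosome, where proteases such as cathepsins cut them into their active form. In skin, keratinocytes, Langerhans cells, macrophages, mast cells and infiltrating leukocytes carry different sets of these receptors.

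Gene counts per library came to 24701074 to 31005554 for the wild type and 19529970 to 25864730 for the knockout. Tnip1 stood at 28.1, 25.1 and 26.0 CPM (counts scaled to library size with TMM factors) in the wild type and at 2.03, 1.57 and 1.83 CPM in the knockout libraries, as the labels imply. Keratinocyte markers summed to 8911 to 14617 CPM in wild type and 23204 to 27216 CPM in knockout skin, so the labelled tissue was borne out, and 4 of these 7 markers were called higher and 1 lower (2 higher with library totals and when replicate 3 of the wild type, or 2 or 3 of the knockout, was left out, and 0 lower when replicate 1 or 3 of either genotype was left out). Of all genes tested, 22.3% were called higher and 22.7% lower. All 6 skeletal muscle markers were lower in knockout skin (7760 to 13889 CPM in sum against 2295 to 3953), as were 3 of 6 adipocyte markers. All 6 adipocyte markers lay below the wild type range, and groups did not overlap for 59.8% of all genes tested. The adipocyte markers called lower were 1 when replicate 2 of the wild type or 3 of the knockout was left out. They were 5 without knockout replicate 2. In that library the adipocyte markers summed to 131 CPM, against 1120 and 1314 CPM in the other knockout libraries. Wild type replicate 2 stood apart, with the highest summed muscle, adipocyte and macrophage markers of its group. Replicate 1 of the wild type did so in its fibroblast markers, which summed to 16454 CPM against 7723 and 6393 CPM in replicates 2 and 3. Both sexes occurred in each group. Y-linked transcripts were high in wild type replicate 1 and knockout replicates 1 and 2, and Xist was high in the other 3 libraries, which bears on Tlr7, Tlr8 and Tlr13 because they lie on chromosome X.

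Across all genes, 45.1% of those tested differed between the genotypes at an adjusted p under 0.05 (22.3% higher and 22.7% lower in knockout skin), by the quasi-likelihood test of edgeR, with p-values adjusted after Benjamini and Hochberg. The same test called 4 of the 10 receptors (40.0%). Tlr2 and Tlr13 were higher in knockout skin, Tlr3 and Tlr9 were lower, and Tlr1, Tlr4, Tlr5, Tlr6, Tlr7 and Tlr8 did not pass. The receptors' share was thus near that of all genes, and so was their median log2 fold change (0.02 against -0.04 for all genes tested). Groups did not overlap for 3 of the 10 receptors, whereas this held for 59.8% of all genes tested. Among surface receptors, 1 of 5 was called higher and 0 lower, with a median of 0.11. Among endosomal receptors, 1 of 5 was higher and 2 lower, with a median of -0.34. In all that follows a log2 fold change is knockout minus wild type with its standard error (SE), and every adjusted p comes from that edgeR test. In bulk skin, fewer cells of a type and less of a transcript per cell cannot be told apart.

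**Figure D1:**
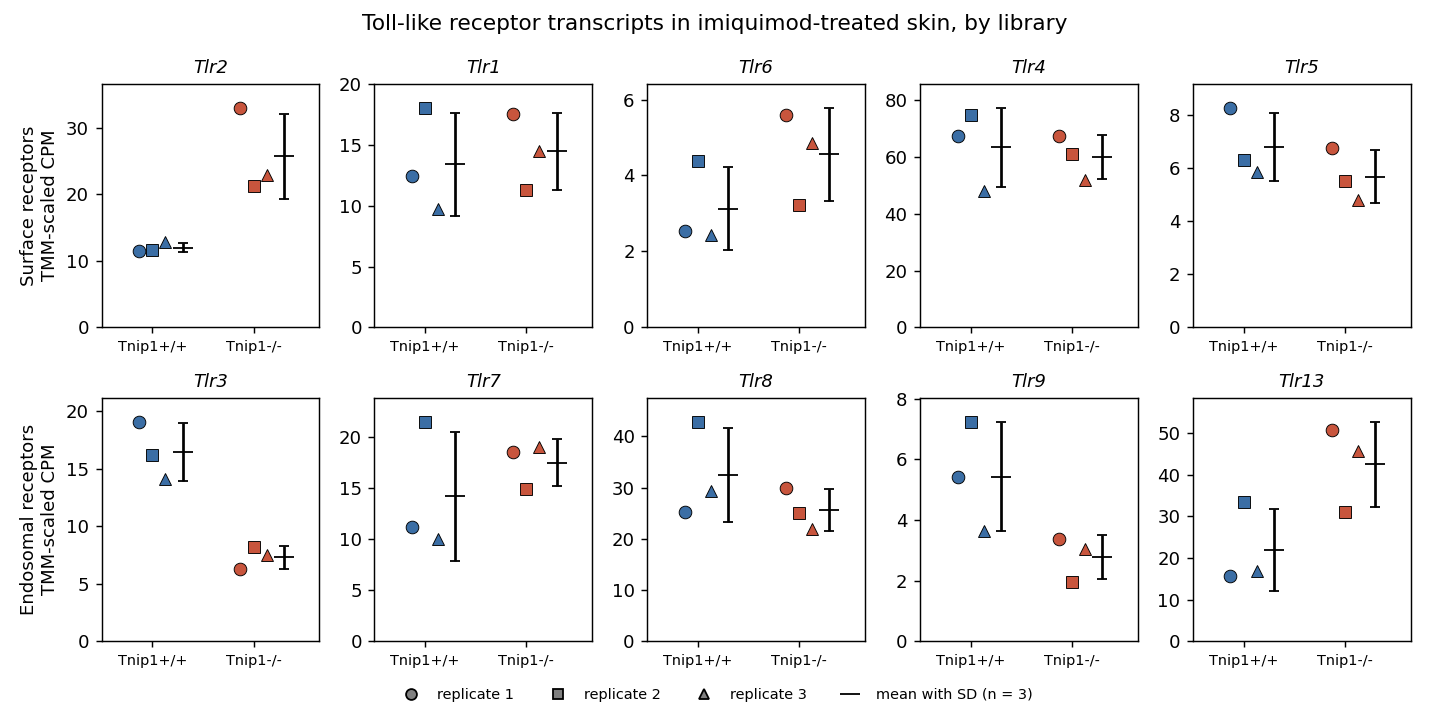
Level of each receptor transcript in TMM-scaled CPM, with 1 point per library, replicates 1 to 3 of each genotype marked by shape, and the mean with SD (n = 3) as a bar. Knockout points lie above all wild type points for Tlr2 and below them for Tlr3 and Tlr9, and the groups overlap for the other 7 receptors.

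Tlr2 encodes the receptor that pairs with TLR1 or TLR6 to bind bacterial lipoproteins. Its level was 11.5, 11.7 and 12.8 CPM in wild type replicates 1 to 3 and 33.0, 21.2 and 22.9 CPM in the knockout libraries. The wild type libraries were close together, every knockout library was above them, and knockout replicate 1 was the highest. The mean rose from 12.0 ± 0.730 to 25.7 ± 6.37 CPM (SD, n = 3 each), 2.14 times the wild type mean, with a log2 fold change of 1.10 (SE 0.19, adjusted p = 0.00456). Tlr2 passed the test in 16 of 16 alternative analyses, with log2 fold changes from 0.89 to 1.24.

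Neutrophils and macrophages are known to carry TLR2, and their markers differed in how they moved. Neutrophil markers summed to 151 to 290 CPM in wild type and 356 to 455 CPM in knockout skin. Of 11 tested markers, 9 were higher (81.8%, against 22.3% of all genes). Among these, Ngp, Camp and Ltf had at most 8 counts in any wild type library. They passed the filter only through the knockout libraries, so a higher call was likely for them. With the stricter filter 6 neutrophil markers were called higher. The defining neutrophil gene Ly6g, however, had at most 9 counts in any library. Csf3r, the receptor for the granulocyte growth factor, was named after its values were seen: it stood at 9.72, 10.1 and 7.03 CPM in wild type and 48.6, 28.0 and 55.4 CPM in knockout skin (log2 2.29, SE 0.28, adjusted p = 0.00157). Macrophage and monocyte markers summed to 1613 to 2415 and 2455 to 3020 CPM, but only 3 of 13 markers (23.1%, against 22.3% of all genes) were called higher and 0 lower, and the median of the list was -0.26. The part of these cells in the Tlr2 difference was not tested.

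Both partners of TLR2 stayed below the threshold. Tlr1, whose product joins TLR2 to bind triacylated lipoproteins, stood at 12.5, 18.0 and 9.74 CPM in wild type and 17.6, 11.3 and 14.5 CPM in knockout skin, and the groups overlapped (log2 0.11, SE 0.26, adjusted p = 0.753). The sign of this difference turned without wild type replicate 3 (-0.06), without knockout replicate 1 (-0.05) and with library totals in place of TMM factors (-0.04). Tlr6, whose product joins TLR2 to bind diacylated lipoproteins, stood at 2.55, 4.38 and 2.44 CPM in wild type and 5.60, 3.22 and 4.86 CPM in knockout skin. Knockout replicate 2 was below wild type replicate 2, and the knockout mean was 1.46 times the wild type mean (log2 0.54, SE 0.32, adjusted p = 0.201).

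Tlr1 and Tlr6 lie on chromosome 5 and have closely related coding sequences. In the GENCODE vM21 annotation of build GRCm38 they share an identical run of 229 bases, at positions 1468 to 1696 of the Tlr1 coding sequence and 1507 to 1735 of that of Tlr6, counted from the first base of the start codon. It is shown because a read of 100 bases that lies within it matches both genes.
Tlr1 and Tlr6, shared run: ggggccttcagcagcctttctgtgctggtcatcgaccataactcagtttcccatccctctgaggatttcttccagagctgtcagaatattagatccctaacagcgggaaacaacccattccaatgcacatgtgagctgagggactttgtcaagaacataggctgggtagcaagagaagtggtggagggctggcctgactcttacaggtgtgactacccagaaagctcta
Of all stretches of 100 bases in the Tlr1 coding sequence, 11.3% also occur in Tlr6, and 11.2% of those in Tlr6 occur in Tlr1. The printed run is the longest shared stretch and holds only a part of these. Reads came in pairs, so a mate outside the shared stretches could assign a pair. How the counter treated reads that match both genes is not given in the sources used here, so the levels of Tlr1 and Tlr6 are uncertain to that extent. No other pair of the 10 receptors shares a run of more than 16 bases.

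Tlr4 encodes the receptor for bacterial lipopolysaccharide. Its level was 67.5, 74.9 and 48.0 CPM in wild type and 67.4, 61.1 and 52.0 CPM in knockout skin, and every knockout value fell within the wild type range (log2 -0.08, SE 0.19, adjusted p = 0.754). The sign of this small difference turned without wild type replicate 2 (0.06) and without knockout replicate 3 (0.03). Accessory proteins hand lipopolysaccharide to TLR4. Cd14, which encodes the co-receptor, stood at 10.6, 16.5 and 9.03 CPM in wild type and 57.7, 26.2 and 32.5 CPM in knockout skin (log2 1.69, SE 0.35, adjusted p = 0.00878). Ly96, which encodes the MD-2 subunit, stood at 5.85, 11.4 and 4.78 CPM against 6.81, 5.59 and 5.69 CPM and did not pass (adjusted p = 0.512).

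Tlr5 encodes the receptor for bacterial flagellin. Its level was 8.28, 6.32 and 5.85 CPM in wild type and 6.77, 5.51 and 4.81 CPM in knockout skin. The groups overlapped, with 1 knockout library above 2 of the wild type libraries (log2 -0.26, SE 0.21, adjusted p = 0.346).

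Tlr3 encodes the endosomal receptor for double-stranded RNA. Its level was 19.0, 16.2 and 14.1 CPM in wild type and 6.25, 8.22 and 7.47 CPM in knockout skin. The lowest wild type library was above the highest knockout library. The mean fell from 16.4 ± 2.50 to 7.31 ± 0.994 CPM (SD, n = 3 each), 44.5% of the wild type mean, with a log2 fold change of -1.17 (SE 0.18, adjusted p = 0.00301). Tlr3 passed the test in 16 of 16 alternative analyses, with log2 fold changes from -1.32 to -1.04. Of its annotated exon bases, 381 overlap the antisense gene Gm45542 in GENCODE vM21, and the strand option of the counter is not given in the sources used here, so reads of the pair in that overlap could not be told apart. Ticam1, which encodes the adaptor of TLR3, stood at 7.98, 6.76 and 6.44 CPM in wild type and 7.45, 5.46 and 6.42 CPM in knockout skin and did not pass (adjusted p = 0.580).

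Dendritic and Langerhans cells are only some of the cells known to carry TLR3. Of their 9 markers, 5 were lower and 0 higher (55.6% called, against 45.1% of all genes). Their sum was 143 to 178 CPM in wild type and 127 to 159 CPM in knockout skin. Most of that sum came from Epcam, which epithelial cells also express and which did not pass (129, 91.0 and 117 CPM in wild type and 118, 136 and 109 CPM in knockout skin). Cd207, the langerin gene of Langerhans cells, stood at 12.5, 15.9 and 21.1 CPM against 2.37, 3.35 and 1.10 CPM (log2 -2.85, SE 0.39, adjusted p = 0.00231). Other marker lists moved both ways: of 7 keratinocyte markers, 4 were higher and 1 lower, and all 6 skeletal muscle markers were lower. The part of any of these cell types in the Tlr3 difference was not tested.

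Tlr7 encodes the endosomal receptor for single-stranded RNA and for imiquimod, the agent applied to all 6 mice. Its level was 11.2, 21.5 and 10.0 CPM in wild type replicates 1 to 3 and 18.5, 14.9 and 19.1 CPM in the knockout libraries. Wild type replicate 2 was the highest of all 6 libraries, and each knockout library was above the other 2 wild type libraries. The difference did not pass with all libraries (log2 0.30, SE 0.30, adjusted p = 0.436) and passed without wild type replicate 2 (0.72, adjusted p = 0.0186). Without any other library it stayed above the threshold.

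Wild type replicate 2 was the highest of its group for 7 of the 10 receptors (Tlr1, Tlr4, Tlr6, Tlr7, Tlr8, Tlr9 and Tlr13). The summed macrophage and monocyte markers of that library were 2415 CPM, against 1613 and 1710 CPM in wild type replicates 1 and 3. Its summed mast cell markers were 292 CPM, against 144 and 167 CPM. Its endothelial markers were 360 CPM, against 250 and 202 CPM. Without this library the log2 fold change was 1.08 for Tlr2 and -1.18 for Tlr3, which both still passed, and -0.71 for Tlr9, which did not (adjusted p = 0.126). For Tlr6 it was 0.86 (adjusted p = 0.0612).

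Tlr8 encodes another endosomal receptor of single-stranded RNA, whose response to ligands in mice differs from that of the human receptor. Its level was 25.3, 42.8 and 29.3 CPM in wild type and 29.9, 25.1 and 21.9 CPM in knockout skin, and the groups overlapped (log2 -0.34, SE 0.22, adjusted p = 0.239). Without wild type replicate 2 the difference was -0.09.

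Tlr9 encodes the receptor for DNA with unmethylated CpG. Its level was 5.43, 7.24 and 3.63 CPM (181, 213 and 98 counts) in wild type and 3.36, 1.95 and 3.03 CPM (78, 46 and 58 counts) in knockout skin. The groups did not overlap, but wild type replicate 3 was only slightly above knockout replicate 1. The mean fell from 5.43 ± 1.81 to 2.78 ± 0.739 CPM (SD, n = 3 each), with a log2 fold change of -0.97 (SE 0.33, adjusted p = 0.0463). The direction held in 16 of 16 alternative analyses and the call in 8 of them. The call was lost without wild type replicate 1 or 2 and without any single knockout library, where the log2 fold change lay between -1.12 and -0.71.

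Tlr9 is known from plasmacytoid dendritic cells and B cells. Of 6 tested plasmacytoid dendritic cell markers, 3 were lower and 0 higher (50% called, against 45.1% of all genes). The markers of these cells summed to 238 to 302 CPM in wild type and 117 to 126 CPM in knockout skin. Most of that sum came from genes that other cells also express: Tcf4 alone stood at 141, 162 and 139 CPM in wild type and 76.9, 81.8 and 81.9 CPM in knockout skin. The defining gene Siglech had 12, 17 and 12 counts in wild type and 2, 3 and 3 counts in knockout skin and, with Pacsin1 and Cd300c, stayed under the filter. B cell markers summed to 1.44 to 2.24 and 1.72 to 3.73 CPM, and 6 of 7, with Ms4a1 among them, were under the filter. The part of plasmacytoid dendritic cells in the Tlr9 difference was not tested.

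Tlr13 encodes a receptor for bacterial ribosomal RNA that mice have and humans lack. Its level was 15.6, 33.4 and 16.8 CPM in wild type and 50.6, 31.0 and 45.6 CPM in knockout skin. The groups overlapped, since wild type replicate 2 was above knockout replicate 2. The mean rose from 21.9 ± 9.93 to 42.4 ± 10.2 CPM (SD, n = 3 each), with a log2 fold change of 0.95 (SE 0.33) and an adjusted p of 0.04996 that was barely under the threshold. The direction held in 16 of 16 alternative analyses and the call in 7 of them. The call was lost with library totals (0.81, adjusted p = 0.0574) and with upper-quartile factors (0.87, adjusted p = 0.0659), and with the level of Y-linked genes as a covariate (1.04, adjusted p = 0.0597). It was also lost without wild type replicate 1 or 3 and without knockout replicate 1 or 3, and the log2 fold change without wild type replicate 2 was 1.39.

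**Figure D2:**
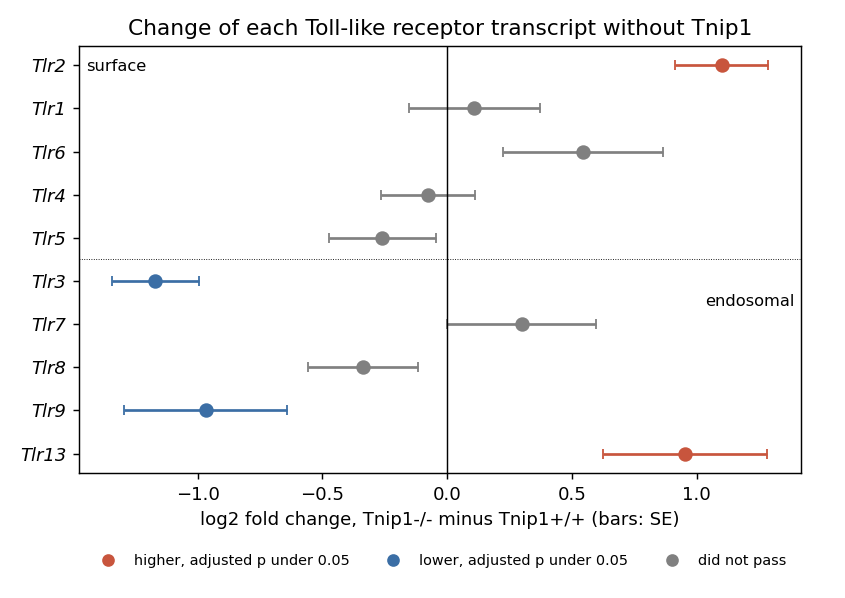
Log2 fold change of each receptor transcript, knockout minus wild type, with its SE as a bar, coloured by whether the adjusted p was under 0.05. Tlr2 (1.10) and Tlr13 (0.95) lie on the higher side, Tlr3 (-1.17) and Tlr9 (-0.97) on the lower side, and the calls of Tlr9 and Tlr13 were lost in several alternative analyses.

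The sequence before the start of the 4 called receptors is shown because these genes moved in both directions, as a place to read for sites of the factors on which the pathway ends. Sequences come from RefSeq on build GRCm38.p6, where 8 of the 10 receptors matched (Tlr4 and Tlr7 did not), and positions are counted back from the RefSeq start. The 250 bases before each start were searched on both strands for the interferon response element GAAANNGAA, the NF-kB consensus, the AP-1 site TGANTCA and the PU.1 site GAGGAAGT. For Tlr2, Tlr3 and Tlr13 that window reaches into the first exon in GENCODE vM21, so a shorter stretch is printed: for Tlr2 and Tlr13 the part before that exon, and for Tlr3 the 30 bases around its match. The stretches are chr3:83841768-83841858 (minus strand) for Tlr2, chr8:45410572-45410601 (minus strand) for Tlr3, chr9:106222348-106222597 (plus strand) for Tlr9 and chrX:106143025-106143203 (plus strand) for Tlr13. Capitals mark matches.
Tlr2: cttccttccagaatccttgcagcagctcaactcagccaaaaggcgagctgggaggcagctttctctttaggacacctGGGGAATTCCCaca
Tlr3: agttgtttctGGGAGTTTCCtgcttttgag
Tlr9: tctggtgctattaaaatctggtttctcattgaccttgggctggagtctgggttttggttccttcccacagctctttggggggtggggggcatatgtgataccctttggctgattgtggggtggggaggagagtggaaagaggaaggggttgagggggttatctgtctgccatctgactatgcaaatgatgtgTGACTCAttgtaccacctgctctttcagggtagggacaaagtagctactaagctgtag
Tlr13: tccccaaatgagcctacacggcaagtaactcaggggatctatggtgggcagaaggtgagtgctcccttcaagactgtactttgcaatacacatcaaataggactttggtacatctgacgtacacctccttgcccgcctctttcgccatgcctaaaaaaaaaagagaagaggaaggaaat
Tlr2, which rose, holds overlapping NF-kB matches at positions -173 to -163. Tlr3, which fell, holds 1 at positions -211 to -202, inside its annotated first exon. Tlr9 holds an AP-1 match at positions -58 to -52, and no searched motif was found in the window of Tlr13. Of 32536 promoters of the same length, 3.92% hold the NF-kB consensus, 7.15% the interferon response element, 6.73% the AP-1 site and 2.45% the PU.1 site. Of the receptors that did not pass, Tlr1 holds a PU.1 match, and Tlr6 and Tlr8 hold interferon response element matches. For Tlr1 and Tlr6 the matches lie before 1 of 2 RefSeq starts, and none was found before the other. The bases after the Tlr2 start and the matched Tlr6 start were not found near the beginning of any GENCODE vM21 coding transcript. A match describes letters and is not evidence of binding.

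Levels were compared between receptors only after division by exon length, as TMM-scaled CPM per kilobase of exon. In wild type skin the order of these levels was Tlr4 (11.4), Tlr8 (9.05), Tlr13 (5.09), Tlr1 (4.01), Tlr2 (3.98), Tlr7 (3.48), Tlr3 (3.16), Tlr9 (1.56), Tlr5 (1.42) and Tlr6 (0.839). Of the 9 pairs of neighbours in that order, 7 overlapped in their 3 values, and only the steps from Tlr3 to Tlr9 and from Tlr5 to Tlr6 separated them. In knockout skin the order was Tlr4 (10.8), Tlr13 (9.86), Tlr2 (8.53), Tlr8 (7.15), Tlr1 (4.32), Tlr7 (4.28), Tlr3 (1.40), Tlr6 (1.22), Tlr5 (1.19) and Tlr9 (0.799). Here 6 pairs of neighbours overlapped, and the steps from Tlr8 to Tlr1, from Tlr7 to Tlr3 and from Tlr5 to Tlr9 separated them. Tlr4 was first in both genotypes, Tlr2 had rank 5 in wild type and rank 3 in knockout skin, and Tlr9 moved from rank 8 to rank 10.

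The summed level of the 10 receptors was 44.0 ± 10.1 CPM per kilobase in wild type and 49.6 ± 7.59 in knockout skin (SD, n = 3 each), a difference within the spread of either group. What differed was the make-up of that sum. Tlr2 took 9.39%, 6.98% and 11.8% of it in wild type and 18.9%, 16.2% and 16.1% in knockout skin. Tlr13 took 8.88%, 14.0005% and 10.9% against 20.3%, 16.6% and 22.4%, so on this scale its groups did not overlap. Tlr3, Tlr8 and Tlr9 had smaller shares in every knockout library. Tlr3 took 8.98%, 5.62% and 7.51% in wild type and 2.07%, 3.64% and 3.03% in knockout skin. Tlr8 took 17.3%, 21.6% and 22.7% against 14.4%, 16.1% and 12.9%, and Tlr9 took 3.83%, 3.76% and 2.90% against 1.66%, 1.29% and 1.84%. The endosomal receptors together took 50.3 ± 4.39% in wild type and 47.4 ± 2.31% in knockout skin, which overlapped. Shares within a library are tied to each other, since a larger share of one receptor lowers the others, and they were not tested.

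**Figure D3:**
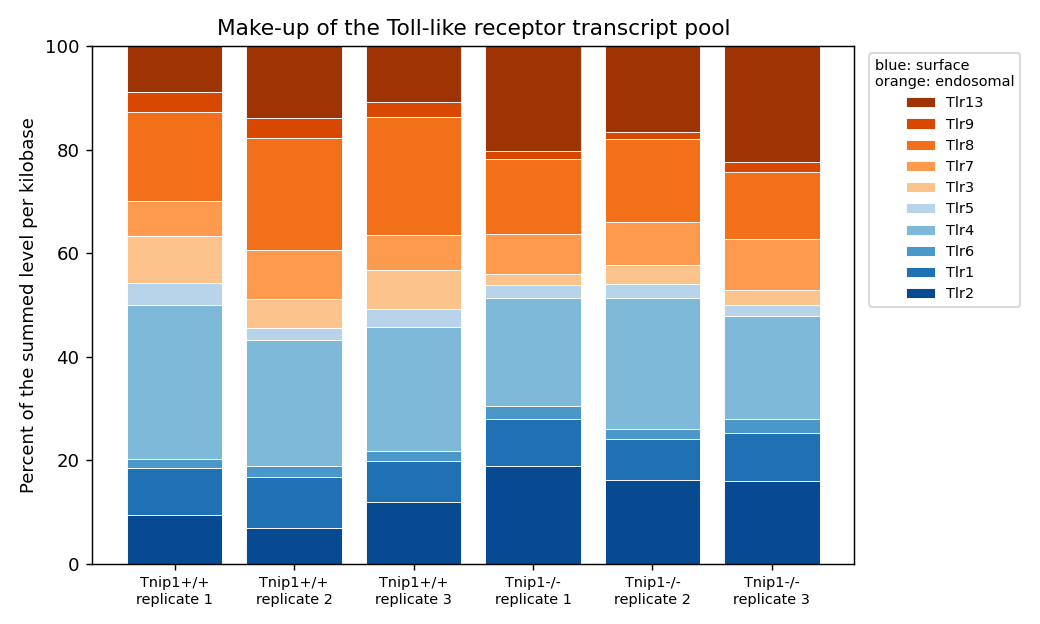
Percent of the summed receptor level (TMM-scaled CPM per kilobase of exon) taken by each receptor in each of the 6 libraries, with surface receptors in blue and endosomal receptors in orange. The Tlr2 segment takes 16.1% to 18.9% of the knockout bars and 6.98% to 11.8% of the wild type bars, while the boundary between surface and endosomal receptors lies near the middle in all 6.

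Ratios between receptors within a library do not depend on how libraries are scaled. The ratio of Tlr13 to Tlr7, both per kilobase, was 1.32, 1.47 and 1.60 in wild type and 2.59, 1.98 and 2.27 in knockout skin. The ratio of Tlr13 to Tlr8 was 0.514, 0.649 and 0.479 against 1.41, 1.03 and 1.73, so Tlr13 was below Tlr8 in each wild type library and above it in each knockout library. The ratio of Tlr9 to Tlr7 was 0.571, 0.396 and 0.426 against 0.213, 0.154 and 0.187. For Tlr2, the ratio to its partner Tlr1 was 1.02, 0.717 and 1.46 in wild type and 2.08, 2.08 and 1.75 in knockout skin. These 4 ratios did not overlap between genotypes. Nor did that of Tlr7 to Tlr8 (0.388, 0.441 and 0.299 in wild type, 0.544, 0.521 and 0.763 in knockout skin). That of Tlr2 to Tlr4 did not overlap either (0.315, 0.287 and 0.493 against 0.903, 0.640 and 0.813). The ratio of Tlr2 to its other partner Tlr6 was 5.59, 3.29 and 6.501 in wild type and 7.29, 8.15 and 5.84 in knockout skin, and it overlapped. A ratio shows that the receptors of a pair changed unequally and not which of them changed. Other pairs of receptors were not compared in this way, so no share over all pairs is given.

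Because most of these receptors are carried by macrophages and monocytes, each was also set against the summed level of 13 markers of those cells in the same library. As a share of that sum, Tlr2 stood at 0.714%, 0.483% and 0.751% in wild type and 1.09%, 0.842% and 0.934% in knockout skin, so knockout values were again all higher. Tlr3 stood at 1.18%, 0.671% and 0.823% against 0.207%, 0.326% and 0.304%, and Tlr9 at 0.337%, 0.300% and 0.212% against 0.111%, 0.0773% and 0.123%. Tlr8 stood at 1.57%, 1.77% and 1.71% against 0.992%, 0.994% and 0.893%, with a small spread in either group. Tlr4 and Tlr5 were also lower in each knockout library on this scale, while Tlr1, Tlr6, Tlr7 and Tlr13 overlapped.

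The result depended on the marker. The sum includes genes that themselves rose, such as Lyz2, the lysozyme gene (378, 507 and 359 CPM in wild type and 964, 795 and 1000.04 CPM in knockout skin), and Mrc1, the mannose receptor gene (228, 272 and 251 against 665, 578 and 355 CPM). Set against C1qa, C1qb and C1qc alone, which encode the complement component that tissue macrophages make, Tlr2, Tlr6, Tlr7 and Tlr13 were higher in each knockout library. On that scale the difference of mean log2 ratio was 1.45 for Tlr2 and 1.39 for Tlr13, while Tlr3 (-0.79) and Tlr9 (-0.57) overlapped. Set against Csf1r alone, the receptor for the macrophage growth factor, Tlr2 was higher and Tlr3, Tlr5, Tlr8 and Tlr9 lower in each knockout library. These denominators moved as well. Csf1r itself was called higher (119, 119 and 121 against 148, 141 and 157 CPM, adjusted p = 0.0324). The knockout means of C1qa, C1qb and C1qc were 0.72, 0.70 and 0.91 times the wild type means, and none of these genes passed. Tlr2 was the one receptor above the wild type range against all 3 denominators. All of these are macrophage transcripts, and no ratio to the neutrophil markers, which were also higher in sum, was taken.

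**Figure D4:**
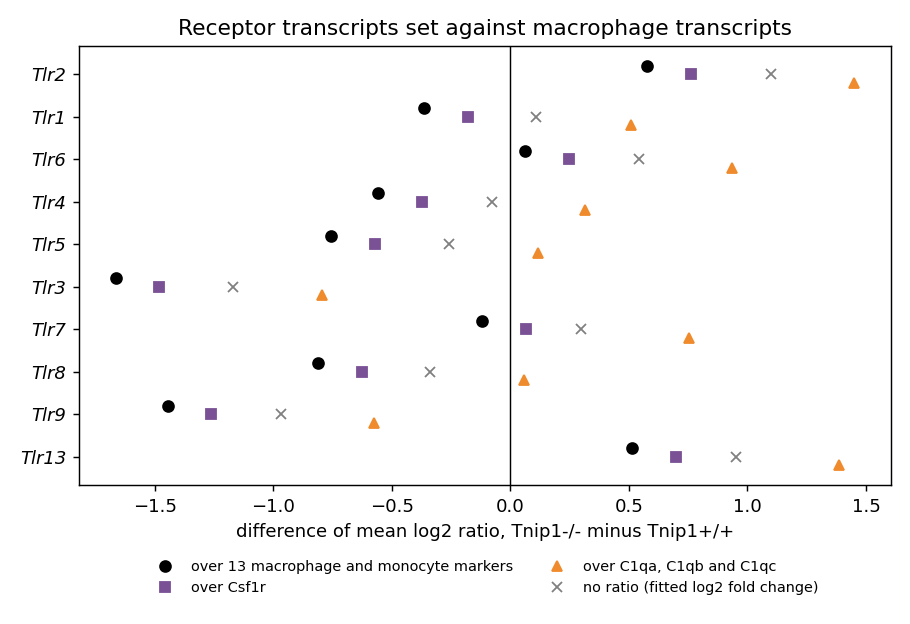
Difference between genotypes in the mean log2 ratio of each receptor to macrophage transcripts (knockout minus wild type), for 3 denominators, beside the fitted log2 fold change without a ratio. The points of Tlr2, Tlr13 and Tlr6 lie above 0 and those of Tlr3 and Tlr9 below 0 for every denominator, and the other receptors lie on both sides.

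Genes with the most similar profile were ranked by the root mean square distance of log2 CPM, centred on each gene's mean, over the 6 libraries, among the 15071 tested genes whose mean was 1 CPM or more. For Tlr2 the nearest were Chka, a choline kinase gene (0.0695), Ccdc86 (0.0722) and Emilin1, a gene of the elastic matrix (0.0825). For Tlr3 they were Palm (0.0554), Disp1 (0.0622) and Mtss1l (0.0717). For Tlr7 they were 0610040J01Rik (0.0802), Clec4a3, which encodes a lectin of myeloid cells (0.0947), and Gja5, a connexin gene (0.0993). For Tlr13 they included AB124611 (0.112) and Lst1, a leukocyte gene (0.169). For Tlr9 they were Eno3, the enolase gene of skeletal muscle (0.126), Fam82a1 (0.150) and Gm10687 (0.164). Eno3 stood at 324, 418 and 249 CPM in wild type and 186, 102 and 175 CPM in knockout skin, so it, like Tlr9, was highest in wild type replicate 2 and lowest in knockout replicate 2. Among the receptors themselves the nearest pair was Tlr6 and Tlr7 (0.180) and the farthest was Tlr3 and Tlr13 (1.19).

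The genes around the receptors were described by 4 lists of the pathway. The list of accessory proteins and co-receptors also held Tlr11 and Tlr12, which are receptor genes of the same family. Of its 21 tested genes, 4 were higher and 3 lower (33.3% called, against 45.1% of all genes, median -0.03). Besides Cd14, the higher ones were Ctsl, which encodes a cathepsin (log2 1.46, SE 0.23, adjusted p = 0.00365), Lrrc59, which aids the transport of endosomal receptors (1.07, SE 0.13, adjusted p = 0.00166), and Slc15a4, an endolysosomal transporter gene (0.84). The lower ones were Cd36, which hands lipids to TLR2 and TLR6 (-1.63, SE 0.31, adjusted p = 0.00624), Tlr11 and Ap3b1, a subunit gene of a sorting complex (-0.34). Tlr11, which encodes a receptor for profilin of parasites, stood at 2.46, 4.45 and 2.67 CPM in wild type and 0.517, 0.678 and 0.157 CPM in knockout skin (-2.78, SE 0.48, adjusted p = 0.00476). Its partner gene Tlr12 had at most 5 counts in any library and was under the filter. Unc93b1 stood at 64.0, 80.7 and 59.8 CPM in wild type and 73.7, 59.3 and 67.1 CPM in knockout skin and did not pass (adjusted p = 0.873).

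Of 20 adaptors, kinases and transcription factors downstream of the receptors, 3 were higher and 3 lower (30% called, against 45.1% of all genes, median 0.08). Myd88, the adaptor gene of most receptors, stood at 31.0, 22.4 and 23.6 CPM in wild type and 70.9, 45.7 and 42.4 CPM in knockout skin (log2 1.05, SE 0.23, adjusted p = 0.0109). Irf7, the interferon regulatory factor used by TLR7 and TLR9, stood at 284, 380 and 205 CPM against 43.7, 23.1 and 38.6 CPM (-3.05, SE 0.32, adjusted p = 0.000934). Irf5, the other interferon regulatory factor of this branch, stood at 34.2, 38.4 and 26.7 CPM against 36.8, 30.5 and 24.9 CPM and did not pass (adjusted p = 0.670). Tab2, whose product joins the kinase TAK1 to ubiquitin chains, was lower (-0.79, SE 0.16, adjusted p = 0.00735). Map3k7, the gene of TAK1 itself, was higher (0.33, SE 0.09, adjusted p = 0.0225), a call that was lost in 9 of 16 alternative analyses. The remaining calls were Traf3, a ubiquitin ligase gene of the interferon branch (0.69), and Pik3ap1, which encodes an adaptor to a lipid kinase (-0.47).

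Of 16 inhibitors of the pathway, Tnip1 among them, 3 were higher and 4 lower (43.8% called, against 45.1% of all genes, median 0.19). These values include Tnip1 itself, whose lower call was fixed by the genotype. Dok3, an adaptor that restrains signalling in myeloid cells (0.88, SE 0.20, adjusted p = 0.0121), Tollip (0.64, SE 0.16, adjusted p = 0.0156) and Nod2, a sensor of bacterial peptidoglycan fragments (1.25), were higher. Tnip3, a relative of Tnip1, was lower (-0.97, SE 0.26, adjusted p = 0.0228), as was Rnf216, a ubiquitin ligase gene (-0.30). Sarm1, an adaptor that restrains TRIF, was also lower (-1.50). It had only 15, 29 and 21 counts in wild type and 4, 9 and 4 counts in knockout skin. Of 11 tested sensors of other families, 2 were higher and 5 lower (63.6% called, against 45.1% of all genes, median 0.13). The lower ones were all genes known to be induced by interferon: Zbp1 (-2.67, SE 0.29, adjusted p = 0.00109), Ifih1 (-1.66, SE 0.18, adjusted p = 0.00116), Eif2ak2 (-1.48, SE 0.19, adjusted p = 0.00168), Ddx58 (-1.67) and Dhx58 (-1.66). The higher ones were Clec4e, a lectin receptor gene of myeloid cells (4.22, SE 0.42, adjusted p = 0.00082), and Nlrp3, an inflammasome gene (2.23).

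**Figure D5:**
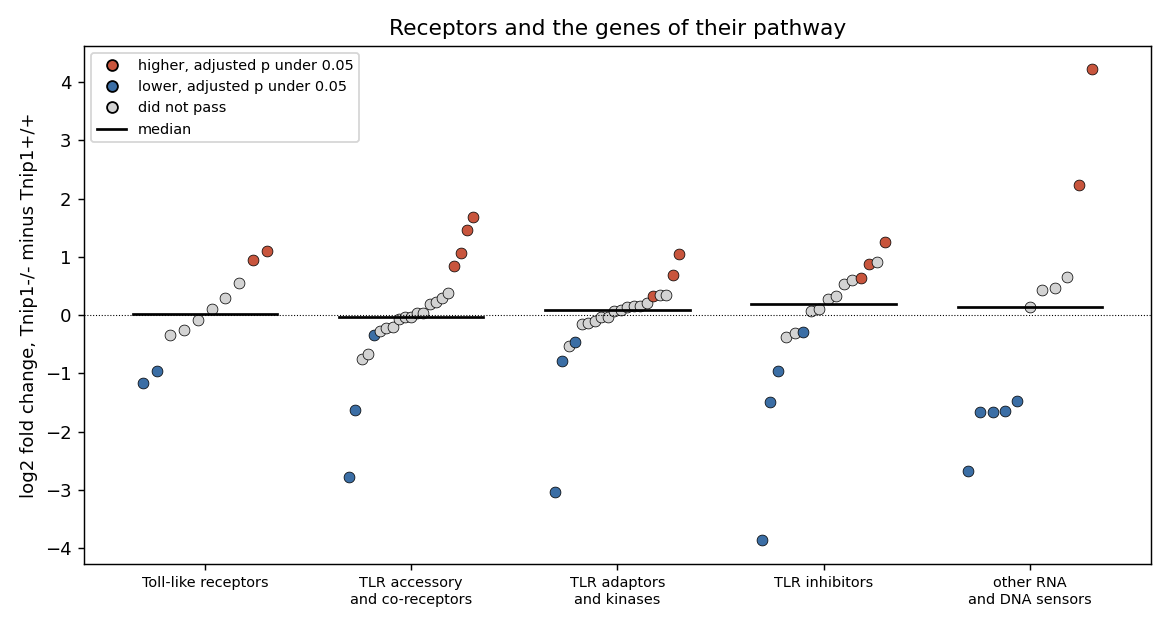
Log2 fold change (knockout minus wild type) of the 10 receptors and of the tested genes in 4 lists of their pathway, with 1 point per gene, coloured by call, and the median of each list as a line. The medians lie between -0.03 and 0.19 in all 5 groups. The 10 receptors span -1.17 to 1.10, whereas the lists also hold Irf7 at -3.05, Tlr11 at -2.78, Zbp1 at -2.67 and Clec4e at 4.22.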

How the data were processed

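RNA of 6 skin samples, 1 library per mouse, was depleted of ribosomal RNA, made into stranded libraries and read in pairs of 100 bases, per the labels' protocols. The deposited values were raw counts of reads per gene symbol, 1 file per library, as the authors left them. The submitters' processing notes name build mm9 and, with no roles or settings, HTSeq, STAR, BWA, CASAVA 1.7, R 3.2.3 and limma. Those settings are not given in the sources used here. The 5 summary lines of the counter, 26.7% to 30.3% of each file, were left out. Samples were grouped by title.

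The test was a quasi-likelihood fit of genotype in edgeR 4.0.16 (R 4.3.3), with TMM factors of 0.898 to 1.095, the default filter by expression and Benjamini-Hochberg adjustment over 16691 genes. Each SE is the fold change divided by the root of its F. At this depth 3 counts equal 0.0968 to 0.154 CPM before TMM scaling. Libraries of a group differed by far more than counting error (chi-square of 30.8 to 124 times its degrees of freedom). Thus none was treated as a duplicate. The procedure was tested on simulated data, where it recovered 31 of 97 changes of log2 1 and 83 of 100 changes of log2 2. Of its 116 calls there, 2 were false. Far fewer genes changed in the simulation than differed here, so these rates need not hold for the receptors.

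The receptors and the 4 pathway and 13 marker lists were chosen with earlier results of these data known. Named genes are the 10 receptors, Tnip1, up to 4 members of each pathway list with the smallest p, and the 3 genes nearest in profile to Tlr7 and to each called receptor, of which 1 is not reported here. Other list members with values, such as Cd14, Ly96, Ticam1, Unc93b1, Irf5, Csf3r, Cd207, Tcf4, Siglech, Lyz2 and Mrc1, and the called genes given by their log2 fold change alone, were picked with their values known. Of all genes tested, 22.3% were called higher and 22.7% lower. Beside these shares, further marker lists gave these calls: T cell 0 higher and 4 lower of 8, and mast cell 1 and 0 of 7. Fibroblast gave 0 and 2 of 6, endothelium 1 and 3 of 6, and sex-linked genes 0 of 5.

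Lengths, exons and coding sequences came from GENCODE vM21 on GRCm38, a later build than that of the counts, matched by symbol. A table of protein sequences was not used here, and shared stretches of coding sequence took the place of the comparison of proteins that had been planned. Alternatives were DESeq2 1.42.0 (size factors, Wald test), other scaling factors, filters and tests (limma 3.58.1), a sex covariate, the replicate number as a block and leaving out each library.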

Additional observations from a re-analysis of the deposited data

How the results depend on the processing

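Tlr2 and Tlr3 kept their direction and call in all 16 alternative analyses, and Tlr5, Tlr6 and Tlr8 stayed without a call in all 16. Of the 10 receptors, 2 were called higher and 2 lower; 1 was called higher with library totals, upper-quartile factors, the stricter filter and the sex covariate, and 1 was called lower with limma voom and the sex covariate. Leaving out each library gave 1 to 3 called higher and 1 to 2 called lower; the 3 came without wild type replicate 2, where Tlr7 passed (0.72). The log2 fold change of Tlr9 without single libraries ran from -1.17 to -0.71 and that of Tlr13 from 0.77 to 1.39. The sign of Tlr1 turned with library totals (-0.040), without wild type replicate 3 (-0.063) and without knockout replicate 1 (-0.049), and single leave-outs ran from -0.063 to 0.38. That of Tlr4 turned without wild type replicate 2 (0.058) and without knockout replicate 3 (0.028), and single leave-outs ran from -0.23 to 0.058. None of these passed. Over all genes, 5471 to 8090 were called. With library totals, 34.1% of the calls were higher in place of 49.6%, and the median over all genes moved by -0.155 (log2). The cause of these changes was not tested. In the order of levels over all 6 libraries, coding length in place of exon length moved Tlr8 from rank 2 to 3, Tlr13 from 3 to 2, Tlr9 from 9 to 10 and Tlr6 from 10 to 9; leaving out wild type replicate 2 made the same 4 moves, and leaving out wild type replicate 3 made those of Tlr8 and Tlr13. So over the leave-outs Tlr6 ran from rank 9 to 10, Tlr8 from 2 to 3, Tlr9 from 9 to 10 and Tlr13 from 2 to 3. With coding length, an alternative added after seeing the data, the endosomal share was 42.7% in wild type and 41.3% in knockout skin. Against C1q genes alone in place of all 13 macrophage markers, the differences in log2 ratio were 1.45 for Tlr2 (0.58 against all markers), -0.79 for Tlr3 (-1.66), 0.75 for Tlr7 (-0.12), -0.57 for Tlr9 (-1.45) and 1.39 for Tlr13 (0.51). Counts in the lists also moved: with library totals, 6 in place of 3 accessory genes were lower (5 with the DESeq2 Wald test), 1 in place of 3 adaptors and 1 in place of 3 inhibitors were higher, and 3 in place of 0 macrophage markers were lower. Accessory genes called lower were 2 with DESeq2 size factors, no filter, the replicate block and the sex covariate. They were also 2 without wild type replicate 2 or any single knockout library. Adaptors called higher were 1 without wild type replicate 3 or any single knockout library; inhibitors called lower were 2 in place of 4 with the sex covariate and without wild type replicate 2 or 3, and 1 without knockout replicate 1 or 3. Macrophage markers called higher were 5 in place of 3 without wild type replicate 2. They were 2 without any other single library, and with library totals, upper-quartile factors, no filter and the replicate block. Macrophage markers called lower were 1 with limma voom and the replicate block, and without wild type or knockout replicate 3. Dendritic and Langerhans cell markers called lower were 3 in place of 5 without any single wild type library or knockout replicate 2 or 3. T cell markers called lower were 2 in place of 4 when replicate 2 or 3 of the wild type, or 1 or 3 of the knockout, was left out. Fibroblast markers called lower were 1 in place of 2 with the sex covariate and without any single wild type library, and 0 without knockout replicate 2 or 3; 1 in place of 0 was higher without wild type replicate 1. Endothelial markers called lower were 1 in place of 3 when replicate 1 or 2 of either genotype was left out, and 0 in place of 1 was higher with library totals and without knockout replicate 2 or 3.

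The sources used here do not say whether the replicate numbers pair the mice. Deviations of same-numbered libraries correlated at 0.01, -0.21 and 0.19 across genes, and those of unlike-numbered libraries at -0.29 to 0.26. With 3 libraries per group these values cannot decide whether the mice were paired. With the replicate block, 6465 genes were called, with 1 receptor called higher (Tlr2) and 1 lower (Tlr3).

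Tlr9 and Tlr6 had the fewest counts, 46 to 213 and 66 to 130 per library. Their SE (0.33 and 0.32) was like that of Tlr13 (0.33), which had 455 to 1175.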
